A study of Rattus norvegicus with 8 samples.

Results

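Cyclic AMP is the second messenger through which follicle-stimulating and luteinising hormone act on ovarian cells, and phosphodiesterases are the enzymes that break it down. The cAMP phosphodiesterases described here are 10 genes, Pde3a, Pde3b, Pde4a, Pde4b, Pde4c, Pde4d, Pde7a, Pde7b, Pde8a and Pde10a, represented by 15 of the 30367 probes of a rat expression array. The array names 26204 genes in all. Probes were taken by gene name alone, as every probe that the array design assigns to one of these symbols, and 5 of the genes have 2 probes each. The genes themselves were chosen with earlier results of these data known. Immature female rats were injected at 26 days of age with PMSG, at 50 IU in a volume of 0.2 ml, or with its buffer alone, and ovaries were taken 48 h later, at 28 days. PMSG (pregnant mare serum gonadotropin) acts mainly like follicle-stimulating hormone and in part like luteinising hormone. The groups were 4 arrays labelled PMSG and 4 labelled control, each of whole-ovary RNA. Both groups share the immature stage and the injected buffer. The titles of the control arrays read reference without treatment, although an injected volume of 0.2 ml is recorded for both groups. The labels do not say that each array came from a separate animal, so p-values measure the spread between these arrays, which may in part be technical.

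The families differ in what they cut and how they are controlled. Enzymes of families 4, 7 and 8 are specific for cAMP, families 3 and 10 also cut cGMP, and the family 3 enzymes are slowed by cGMP. In the ovary, Pde3a is known as the oocyte enzyme that keeps cAMP in check before meiosis resumes, whereas Pde4b and Pde4d are known as gonadotropin-responsive enzymes of granulosa and theca cells. Pde8a is a high-affinity enzyme known from steroid-producing cells of the testis and adrenal.

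All 8 arrays lay on 1 slide, with 2 arrays of each label in either slide row. The 75th percentile of the signal ranged from 768.9 to 1103, between 80.8% and 84.6% of probes were well above background, and no spot was saturated. Values are log2 processed signal minus the array's own 75th percentile, so a value of -3 lies 3 log2 units under that percentile. They are given per probe, and a difference is always PMSG minus control. Pearson correlations across probes ran from 0.987 to 0.993 among arrays labelled control, from 0.977 to 0.991 among arrays labelled PMSG and from 0.960 to 0.972 between the labels. Directions follow the sample titles, although Lhcgr and Star, a gonadotropin receptor and a cholesterol carrier that gonadotropins are generally known to raise, were lower in arrays labelled PMSG, by log2 differences of -1.93 and -2.75 (limma adjusted p = 0.00114 and 0.00541). Whether titles were exchanged was not tested, and an exchange would turn every direction given here.

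Pde4b, Pde4d and Pde8a were lower in the arrays labelled PMSG, and no cAMP phosphodiesterase probe was called higher. Of the 15 probes, 14 probes of 9 genes were bright enough to be tested, which required a call well above background on at least 4 of the 8 arrays, and 13 were above background on all 8 arrays. Of the 14, 3 passed a limma adjusted p under 0.05, or 21.4%, against 34.2% of all 25303 tested probes. All 3 were lower, a direction that 16.6% of all tested probes took, and 17.6% were called higher. The median log2 difference of the 14 probes was -0.15, beside 0.11 over all tested probes, with 7 means lower and 7 higher.

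The probes behind those calls are shown because they say which part of each transcript was read. The Pde4b probe and the first 30 bases of the second Pde4d probe run to a TAA in capitals, a stop codon that closes the reading frame open up to there; the frame was not checked against an annotation. The first Pde4d probe holds another sequence. The array's rn4 placements put the first and second Pde4d probes on different sequences, chr18_random and chr2_random. That both read the same gene rests on the array's naming. The Pde8a probe covers 60 bases over a genomic span of 1253, and so crosses an exon junction.
Pde4b: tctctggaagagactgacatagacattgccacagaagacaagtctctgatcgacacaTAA
Pde4d probe 2: gtcgcagacgattgttgtcctgacacgTAA
Pde4d probe 1: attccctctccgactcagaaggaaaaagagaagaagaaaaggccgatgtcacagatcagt
Pde8a: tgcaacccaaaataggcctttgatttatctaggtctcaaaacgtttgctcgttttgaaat
The longest run of bases shared between probes of different members was 9, over 100 pairs compared.

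Among the cAMP-specific family 4 enzymes, Pde4b showed the largest difference. Its probe lies at chr5:123533360-123533419 on rn4 and was made for NM_017031. The Pde4b values were -3.21, -3.17, -3.04 and -2.84 on control arrays 1 to 4. On PMSG arrays 1 to 4 they were -5.48, -3.95, -4.84 and -4.28. Every PMSG-labelled array lay under every control-labelled one, with PMSG 1 the lowest and PMSG 2 the highest of its group. The mean fell from -3.06 ± 0.16 to -4.64 ± 0.67 (SD, n = 4 each), a difference of -1.57 (SE 0.30, limma adjusted p = 0.00515) and 2.97-fold on the linear scale. The exact two-sided permutation p was 0.0286, the smallest that 4 arrays against 4 can give. The 95% interval ran from -2.27 to -0.87. Values of the groups also failed to overlap for 36.6% of all tested probes, and 4.6% were called and at least 2-fold lower. Another background correction was normexp on mean and local background signals, with an offset of 50 added to every signal. Such an added constant narrows log2 differences of dim probes. Under normexp the Pde4b difference shrank to -0.73 and stayed past the threshold (limma adjusted p = 0.00109). The part of the offset in the smaller differences under normexp was not tested.

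The array names a pair of probes Pde4d, and they gave unlike values. Probe 2, made for NM_017032 and placed at chr2_random:1584228-1584288 on rn4, gave -2.04, -2.33, -2.18 and -2.21 on control arrays 1 to 4. On PMSG arrays 1 to 4 it gave -4.46, -2.32, -3.55 and -3.71. PMSG 2 sat at the level of the control arrays, marginally above control 2, while the other 3 PMSG-labelled arrays were lower than all controls. The means were -2.19 ± 0.12 and -3.51 ± 0.89 (SD, n = 4 each), a difference of -1.32 (SE 0.39, 95% interval -2.22 to -0.42, limma adjusted p = 0.0320). The exact two-sided permutation p was 0.0571. This call was lost when any 1 of the arrays except PMSG 2 was left out (limma adjusted p from 0.0533 to 0.0738), and without PMSG 2 the difference was -1.72 (limma adjusted p = 0.00209). Under normexp the Pde4d difference was -0.84 (limma adjusted p = 0.0192).

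Pde4d probe 1, made for NM_001113328 and placed at chr18_random:265746-265805 on rn4, gave -4.02, -4.23, -3.94 and -4.31 on the control arrays and -4.64, -3.95, -4.72 and -5.17 on the PMSG arrays. PMSG 2 again lay among the controls. The difference of -0.50 (SE 0.24, 95% interval -1.05 to 0.05) did not pass (limma adjusted p = 0.140). It passed without PMSG 2, at -0.73 (limma adjusted p = 0.0174), and under quantile normalization, at -0.75 (limma adjusted p = 0.0384), and was -0.14 under normexp. Since both probes sit on the same array, a subtracted array-wide percentile cancels in their difference, whereas background correction does not. Probe 2 minus probe 1 for Pde4d was 1.98, 1.90, 1.76 and 2.10 on the control arrays and 0.18, 1.64, 1.17 and 1.47 on the PMSG arrays. All 4 PMSG-labelled values were under all 4 controls, a change of -0.82 (exact two-sided permutation p = 0.0286, Benjamini-Hochberg 0.0714 over the 5 genes with a pair of probes). After adjustment the unequal change of the Pde4d probes did not pass. Over the 10 alternative settings tried for this pair, the change ran from -0.99 to -0.51.

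Pde4a and Pde4c, the other family 4 genes, did not pass the threshold. Pde4a probe 1 (chr8:20240918-20240977) gave -4.14, -4.04, -3.90 and -4.34 in control and -4.47, -4.19, -4.76 and -4.50 in PMSG arrays, a difference of -0.38 (SE 0.15, limma adjusted p = 0.0840). Probe 2 (chr8:20241328-20241387) of the same gene differed by 0.13 (SE 0.12, limma adjusted p = 0.424). Within arrays the Pde4a probes shifted against each other by 0.51 (exact two-sided permutation p = 0.0286, Benjamini-Hochberg 0.0714), with no overlap between labels. Under normexp this shift was 0.20 (exact two-sided permutation p = 0.0857). Neither Pde4a probe passed, although probe 1 did under quantile normalization, under median centring and without PMSG 2 (limma adjusted p = 0.0481, 0.0491 and 0.0443). Pde4c (chr16:19197301-19197360) was dim, above background on 3 arrays of each label. Its values were -7.64, -6.49, -6.50 and -6.30 in control and -5.45, -6.43, -5.70 and -6.16 in PMSG arrays. The Pde4c difference of 0.80 (SE 0.33, 95% interval 0.04 to 1.56) did not pass after adjustment (limma adjusted p = 0.0967).

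**Figure D1:**
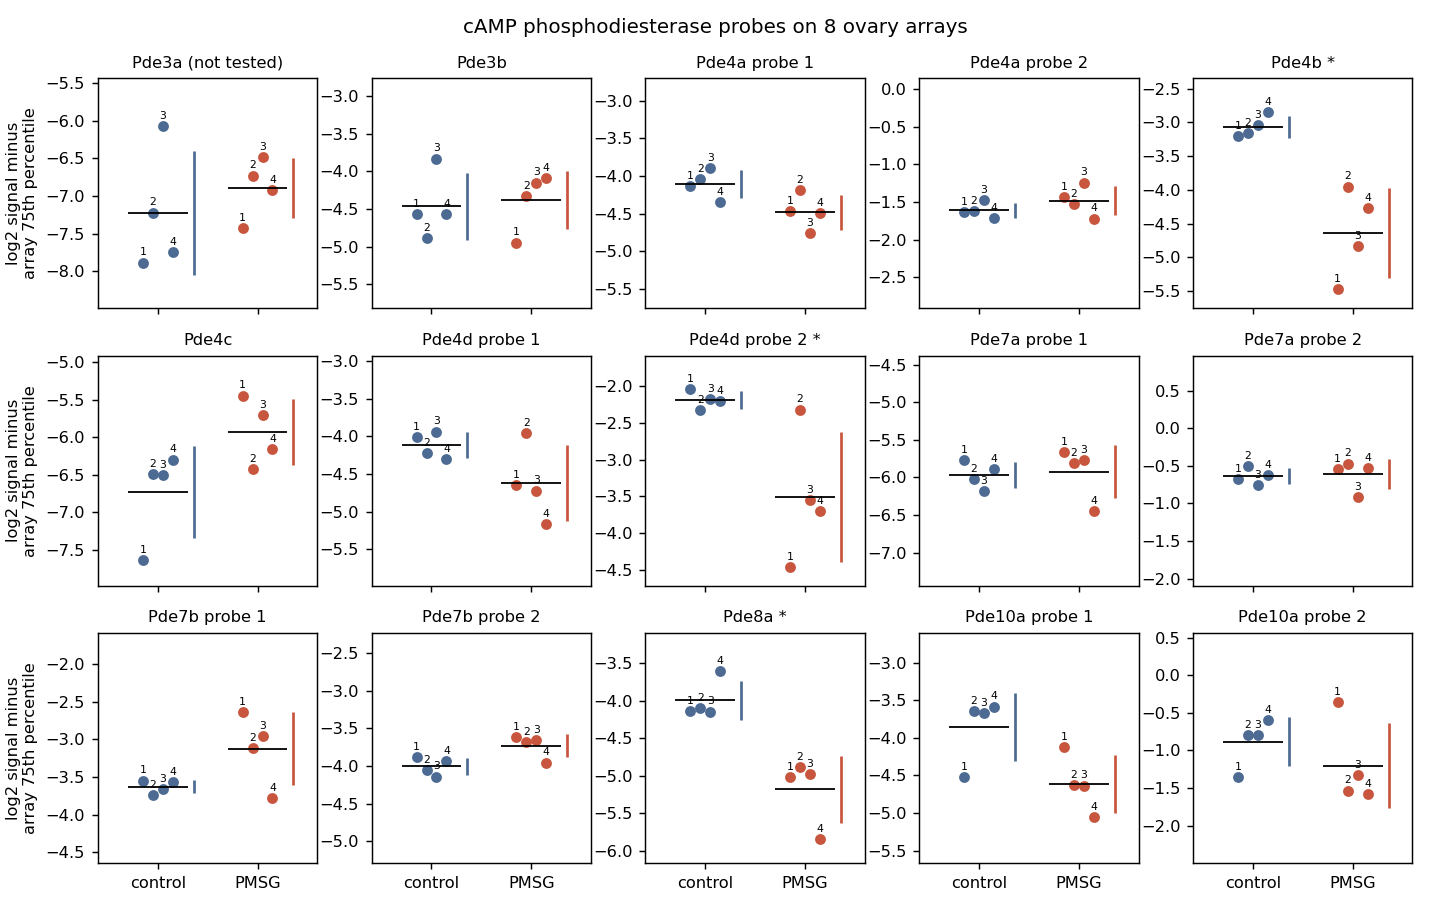
Each panel plots 1 probe, with log2 signal minus the array's 75th percentile on the vertical axis and the array's replicate number beside each point (blue control, red PMSG). Horizontal lines are means, coloured vertical bars span 1 SD either side, vertical scales differ between panels, and an asterisk marks a limma adjusted p under 0.05. The labels separate fully for Pde4b and Pde8a, and PMSG 2 lies among the controls for both Pde4d probes.

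Pde8a, the high-affinity cAMP-specific enzyme, was the other member whose groups separated. Its probe, made for NM_198767, spans chr1:137524088-137525340 on rn4. The Pde8a values were -4.14, -4.10, -4.15 and -3.61 on control arrays 1 to 4. On PMSG arrays 1 to 4 they were -5.02, -4.88, -4.98 and -5.85. In both groups 3 arrays lay close together, with control 4 above its group and PMSG 4 under its own, and the labels did not overlap. The means were -4.00 ± 0.26 and -5.18 ± 0.45 (SD, n = 4 each), a difference of -1.18 (SE 0.23, 95% interval -1.72 to -0.64, limma adjusted p = 0.00568), or 2.27-fold. The exact two-sided permutation p was 0.0286. Processed signals of the Pde8a probe ran from 56.6 to 90.2 in control and from 18.8 to 34.7 in PMSG arrays, which makes it a dim probe, and under normexp the difference was -0.41 (limma adjusted p = 0.0278).

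The sign of these differences was the same in both slide rows. In the first and second slide row, with 2 arrays of each label in either, the PMSG minus control difference was -1.39 and -1.75 for Pde4b, -1.07 and -1.29 for Pde8a, and -0.67 and -1.97 for Pde4d probe 2.

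Families 3 and 10 cut both cyclic nucleotides, and none of their probes passed with all arrays and 75th percentile scaling. The probe of Pde3a, the oocyte enzyme (NM_017337; chr4:178930231-178930290), was above background on 1 array of each label and was not tested. Its values ran from -7.89 to -6.07 in control and from -7.43 to -6.48 in PMSG arrays, and no fold is given. Pde3b (chr1:172576876-172576935), known from fat and liver as an insulin-responsive enzyme, gave -4.56, -4.89, -3.83 and -4.57 in control and -4.95, -4.33, -4.15 and -4.09 in PMSG arrays. The groups overlapped, with a difference of 0.08 (SE 0.27, 95% interval -0.53 to 0.69, limma adjusted p = 0.823), whose sign turned under 3 other scalings or weightings. Pde10a probe 1 (chr1:46393704-46393763) gave -4.53, -3.64, -3.68 and -3.59 in control and -4.12, -4.63, -4.64 and -5.06 in PMSG arrays. Control 1 and PMSG 1 each lay toward the other group, and the difference of -0.75 (SE 0.26, 95% interval -1.36 to -0.15) fell short of the threshold (limma adjusted p = 0.0582). Pde10a probe 1 passed under quantile normalization (-0.98), under median centring (-0.92), without control 1 (-0.98) and without PMSG 1 (-0.92), at limma adjusted p = 0.0138, 0.0199, 0.0141 and 0.0362, and was -0.30 under normexp. Pde10a probe 2 (chr1:46392997-46393056), printed in 10 spots, differed by -0.32 (SE 0.29, limma adjusted p = 0.418).

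Family 7 enzymes, cAMP-specific and insensitive to the classical family 4 inhibitors, included the members with the smallest differences. The Pde7a probes at chr2:104343516-104343575 and chr2:104340030-104340089 differed by 0.04 and 0.03 (limma adjusted p = 0.871 and 0.885). Their signs turned under median centring, to -0.12 and -0.14. Pde7b probe 1 (chr1:15701517-15701576) gave -3.55, -3.74, -3.66 and -3.57 in control and -2.64, -3.12, -2.96 and -3.79 in PMSG arrays. PMSG 4 was the lowest of all 8 arrays and the other 3 PMSG-labelled arrays were the highest. Its difference of 0.50 (SE 0.22, 95% interval -0.01 to 1.02) did not pass (limma adjusted p = 0.117). Pde7b probe 2 (chr1:15701172-15701231) had PMSG 4 among the controls and the other 3 PMSG-labelled arrays above all of them, with a difference of 0.28 (SE 0.11, limma adjusted p = 0.0920). Without PMSG 4 both Pde7b probes passed, at 0.72 and 0.35 (limma adjusted p = 0.00519 and 0.0240).

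**Figure D2:**
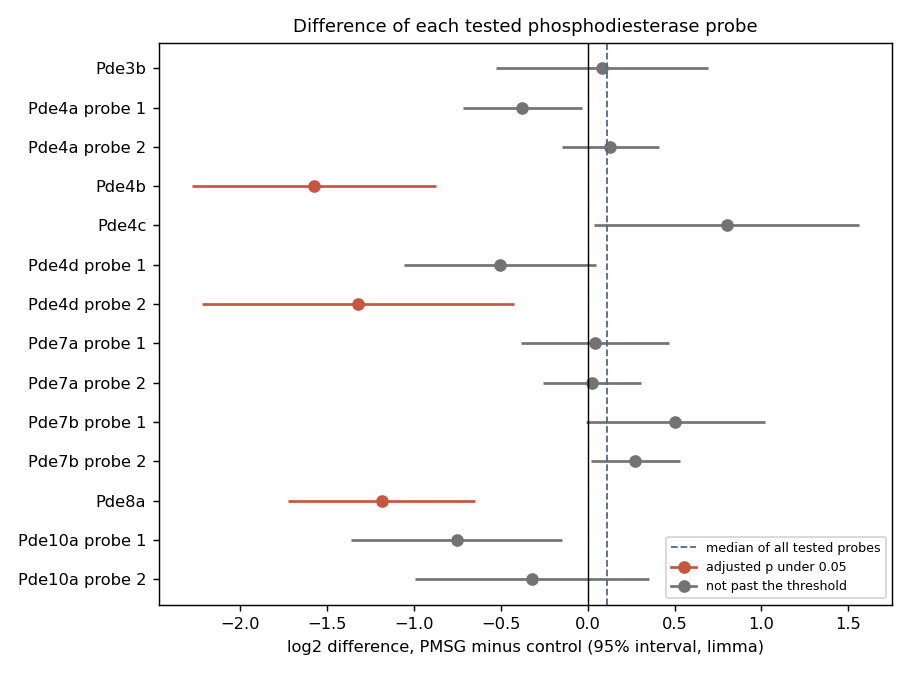
Points are log2 differences (PMSG minus control) of the 14 tested probes and bars are limma 95% intervals, red where the adjusted p was under 0.05. The dashed line marks the median of all tested probes at 0.11. Pde4b, Pde4d probe 2 and Pde8a lie at -1.57, -1.32 and -1.18.

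The remaining probe pairs did not separate. Within arrays the change between probes was 0.44 for Pde10a, -0.23 for Pde7b and -0.02 for Pde7a (exact two-sided permutation p = 0.0571, 0.229 and 0.971, Benjamini-Hochberg 0.0952, 0.286 and 0.971). None of the 5 pairs passed after adjustment.

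**Figure D3:**
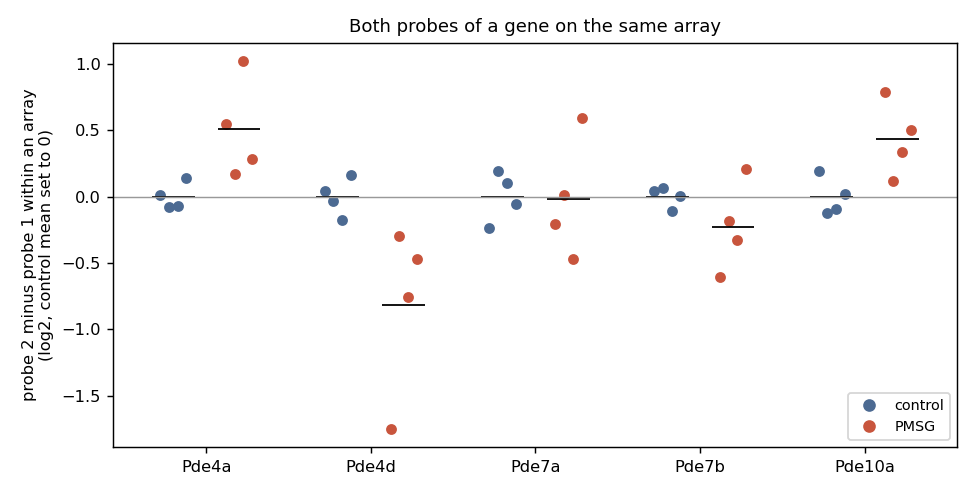
For each gene with a pair of probes, points give probe 2 minus probe 1 on the same array (log2, control mean set to 0; blue control, red PMSG) and black lines the group means. PMSG-labelled arrays lie under all controls for Pde4d, by -0.82 on average, and above all controls for Pde4a, by 0.51.

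The calls of Pde4b and Pde8a held under all 18 alternative settings tried. The limma adjusted p of Pde4b ranged from 0.00109 to 0.0182 and that of Pde8a from 8.30e-04 to 0.0334. The Pde4d probe 2 call was lost in 8 of the 18. Under quantile normalization 6 member probes passed, or 42.9% beside 35.8% of all tested probes. Under median centring 5 passed, or 35.7% beside 33.4%. All of these were lower, and whether the members' share lay under or over that of all probes turned with the scaling.

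**Figure D4:**
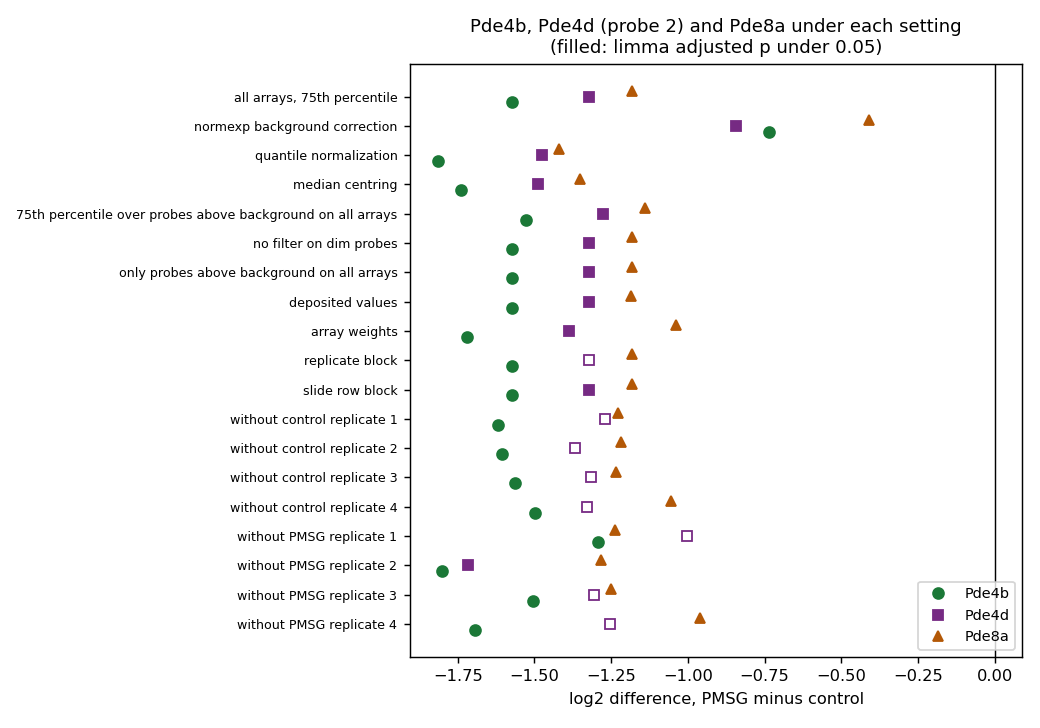
Log2 differences (PMSG minus control) of Pde4b (circles), Pde4d probe 2 (squares) and Pde8a (triangles) under each processing setting and with each array left out, filled where the limma adjusted p was under 0.05. All points lie under 0, between -1.81 and -0.41, and the open symbols all belong to Pde4d.

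Promoter sequence was searched for the letters that the cAMP-responsive factor CREB binds, because Pde4b and Pde4d are known cAMP-induced genes. RefSeq promoters of assembly GRCr8 were available for 6 of the 10 members, as 15 windows of 250 bases before a transcript start. The full motif TGACGTCA, on either strand, was in 0 of the 15 windows and in 1.59% of all 33469 promoters of that length. Its shorter form TGACG, which the full motif contains, was in 6 of the 15 windows and in 18.2% of all promoters. Among the called genes, 2 of 5 Pde4d windows, the single Pde8a window and 0 of 2 Pde4b windows held it. The Pde4d window with a match on each strand (chr2:42592499-42592748, plus strand) and the Pde8a window (chr1:144575219-144575468, plus strand) are printed with the matches in capitals.
Pde4d promoter: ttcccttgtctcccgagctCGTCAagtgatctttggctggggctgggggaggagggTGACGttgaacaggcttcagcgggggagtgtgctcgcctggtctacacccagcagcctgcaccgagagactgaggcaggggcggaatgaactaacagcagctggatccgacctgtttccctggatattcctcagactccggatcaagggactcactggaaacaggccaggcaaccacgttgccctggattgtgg
Pde8a promoter: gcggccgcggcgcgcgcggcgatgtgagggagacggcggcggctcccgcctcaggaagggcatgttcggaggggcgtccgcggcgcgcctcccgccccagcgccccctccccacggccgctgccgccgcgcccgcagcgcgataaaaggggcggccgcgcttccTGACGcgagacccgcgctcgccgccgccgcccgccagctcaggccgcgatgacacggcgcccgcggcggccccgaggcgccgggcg
A match describes these letters only, and no binding was measured.

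Other genes with the array-by-array pattern of the called members were sought among 19984 genes above background on all 8 arrays, by the root-mean-square distance between centred log2 values over those 8 arrays. Nearest to Pde4b were Adamts1, a secreted protease of the ovulating follicle, at 0.170, Sphk1, which makes sphingosine 1-phosphate, at 0.225, and Utp20 at 0.253. The log2 differences of Adamts1 and Sphk1 were -1.31 and -1.33 (limma adjusted p = 0.00474 and 0.00115). Nearest to Pde4d probe 2 were Alas1, the first enzyme of heme synthesis, at 0.197, RGD1561442 at 0.265 and the mitochondrial folate enzyme Mthfd2 at 0.302. Nearest to Pde8a were the ceramide synthase Cers2 at 0.116, a transcript listed as XM_230540 at 0.117 and the cystine transporter Slc7a11 at 0.127. The distances describe likeness over the same arrays that separate the labels.

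Genes elsewhere in the cAMP pathway moved in both directions. Of 72 listed genes, 71 were on the array and 62 were tested, 1 probe a gene. Of these, 12 rose, 12 fell and 38 did not pass. The called share was 38.7%, near the 34.2% of all tested probes, with a median log2 difference of 0.10 beside 0.11 over all tested probes. Under median centring, which shifts the median of all tested probes from 0.11 to -0.05, the split was 7 higher and 15 lower.

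Cyclic AMP is made by adenylyl cyclases, of which 2 of the 9 tested rose and 2 fell. Adcy2 rose by 1.03 on the log2 scale (SE 0.17, limma adjusted p = 0.00284). Adcy8 was not well above background on any control-labelled array and was on all 4 PMSG-labelled ones, at least 2.04-fold higher (limma adjusted p = 0.00300). Under normexp the log2 differences of Adcy2 and Adcy8 were 0.55 and 0.44, the latter under that bound, and both passed (limma adjusted p = 0.00841 and 0.0155). Adcy3 fell by 0.85 (SE 0.16, limma adjusted p = 0.00402), a call that was lost under normexp (limma adjusted p = 0.0541), and Adcy4 by 0.43 (limma adjusted p = 0.0165, and 0.243 under normexp). Among 5 tested G protein subunits, the inhibitory Gnai3 and Gnai2 were lower by small amounts, at -0.43 and -0.26 (limma adjusted p = 0.0219 and 0.0358), and these calls were lost under 4 and 10 of the 18 settings.

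Of the 10 tested genes named as phosphodiesterases or their subunits outside the members, 3 rose and none fell. Over all tested probes 17.6% were called higher and 16.6% lower. Pde6h and Pde6a, subunits of the photoreceptor cGMP enzyme, rose by 1.89 and 0.78, and Pde2a, a cGMP-stimulated enzyme that cuts cAMP, by 0.74 (limma adjusted p = 0.00267, 0.0103 and 0.0125). Under normexp Pde6h rose by 1.18. The Pde2a call was lost under median centring (limma adjusted p = 0.0636). Among 5 tested genes of cGMP supply, which acts on family 3 enzymes, 2 fell. They were Nppc, the C-type natriuretic peptide that holds oocyte meiosis, at -1.55 (SE 0.30, limma adjusted p = 0.00553), and its receptor Npr2 at -0.49 (limma adjusted p = 0.0282), a call lost when any 1 of 6 arrays was left out.

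Abcc4, a transporter that exports cAMP, fell by 1.66 on the log2 scale (SE 0.09, limma adjusted p = 3.67e-05), from 0.86 ± 0.10 to -0.80 ± 0.07 (SD, n = 4 each). Among the listed sensors of cyclic nucleotides, the cyclic nucleotide-gated channel gene Cnga1 was at least 2.68-fold lower (limma adjusted p = 0.00213, and 0.0782 under normexp). It was above background on all 4 control-labelled arrays and on none labelled PMSG. The smallest log2 difference of Cnga1 among the alternative settings was -0.43, under that bound. Of 16 tested anchors and partners, 4 rose and 3 fell, with Akap2 at -1.01, Arrb2, which brings phosphodiesterase 4 to receptors, at 0.84, Akap10 at -0.63 and Akap11 at 0.62 (limma adjusted p = 0.00125, 6.47e-04, 0.00553 and 0.00429). Akap11 did not pass under median centring (limma adjusted p = 0.0836). Of 8 tested CREB family genes and coactivators, 2 rose and 1 fell. Creb1, the cAMP-responsive factor itself, was at -0.40, and the coactivators Ep300 and Crtc2 at 0.38 and 0.36 (limma adjusted p = 0.0151, 0.0267 and 0.0437). These calls were lost under 2, 5 and 11 of the 18 settings, with limma adjusted p up to 0.0843, 0.355 and 0.216.

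**Figure D5:**
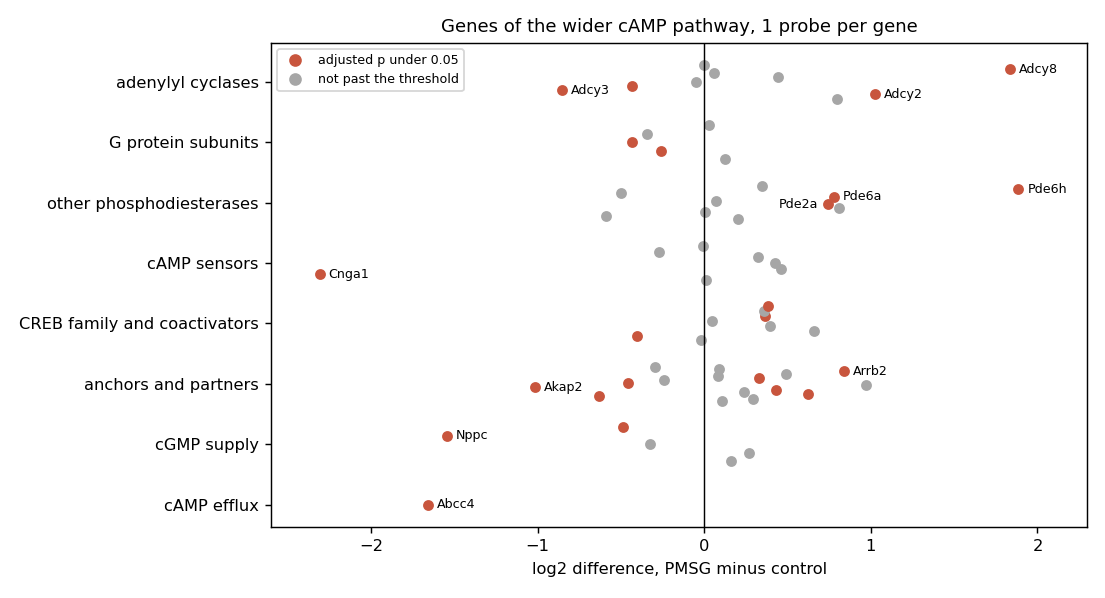
Each point is 1 gene of the wider cAMP pathway, 1 called gene not being drawn, placed by its log2 difference (PMSG minus control) and its role, red where the limma adjusted p was under 0.05. Genes called with a difference beyond 0.7 are named; Cnga1 and Adcy8 are plotted at their fitted values although 1 label lay below background. Called genes lie on both sides of 0, from Cnga1 and Abcc4 on the lower side to Pde6h on the higher.

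Some marker lists of cell types differed between the labels, and others overlapped. Counts of called markers are to be read beside the 34.2% of all tested probes that were called, 17.6% higher and 16.6% lower. In whole-ovary RNA, fewer cells of a type and less RNA per cell cannot be told apart. All 6 tested markers of the list named luteal cell were lower in arrays labelled PMSG. The list level, the log2 of the markers' summed signal, was 5.89 to 6.04 in control and 3.24 to 4.58 in PMSG arrays. Scarb1 and Star were its brightest markers, with control means of 4.97 and 4.79, against 1.58 for Akr1c18. Whether any of these ovaries held luteal cells was not tested. The luteal level of PMSG arrays 1 to 4 was 3.77, 4.58, 3.60 and 3.24. PMSG 2 was the highest of its group in this level and in Pde4b, both Pde4d probes and Pde8a. In Pde4d probe 1 all PMSG arrays followed the order of the luteal level. The endothelial level, at 4.20, 4.21, 4.10 and 4.09 on PMSG arrays 1 to 4, had the same order. The theca and interstitial level, at 7.65, 7.76, 7.68 and 7.07, had the order of Pde8a. PMSG 4, the lowest in luteal level, was also the lowest for Pde8a, with PMSG 3 above PMSG 1. PMSG 1, next to PMSG 2 in luteal level, was the lowest for Pde4b and Pde4d probe 2. All 9 oocyte markers were higher (1.78 to 2.58 in control, 3.60 to 4.61 in PMSG arrays). Of 9 granulosa markers 2 were higher and 3 lower (7.09 to 7.97 and 7.02 to 7.35), and of 8 theca and interstitial markers 3 were higher and 3 lower (8.09 to 8.27 and 7.07 to 7.76), this list sharing Lhcgr and Star with the luteal one. Of 8 endothelial markers 4 were lower and 1 higher (4.39 to 4.61 and 4.09 to 4.21), of 8 macrophage and leukocyte markers 4 were higher (3.33 to 3.68 and 3.84 to 4.08), and of 7 oviduct epithelium markers 5 were higher (3.92 to 4.37 and 4.78 to 5.38). Of 8 fibroblast and smooth muscle markers 3 were higher, of 6 adipocyte markers 1 was higher and of 5 red blood cell markers 1 was lower. The levels of these lists and of the granulosa list overlapped between the labels. Every marker measured was above background on at least 1 array. The part of these cell types in the Pde4b, Pde4d and Pde8a differences was not tested.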

How the data were processed

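Ovary RNA was hybridised to 8 one-colour arrays, 4 labelled control and 4 labelled PMSG. Spot intensity comes from the deposited scanner files, made with Agilent Feature Extraction 11.5.1.1 and placed on rn4, per the file headers. The deposited table of log2 values was found, by comparison, to be scaled to each array's 75th percentile with no centring of probes (column medians -3.21 to -2.82), and each column correlated most with its own array. No column of per-sample values was left unused.

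Outlier and control spots were dropped, and log2 processed signals were averaged per probe and scaled by subtracting the array's 75th percentile. Of 30367 probes, 30350 had usable spots, and 25303 were tested, those with at least 0.5 of their spots well above background on at least 4 arrays. The test was lmFit and eBayes of limma 3.58.1 (R 4.3.3) without covariates, at a Benjamini-Hochberg threshold of 0.05 over all tested probes, checked on simulated data. Member probes were kept apart, and other genes had their brightest probe. Where a probe was below background on all arrays of 1 label, the fold is a bound, each dim array taking the higher of its lowest signal well above background and the probe's own. The number of arrays limits the precision.

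Named were all members, up to 4 called genes of largest difference per pathway group, and the 3 genes nearest in pattern to each called member. The members and lists were chosen with earlier results of these data known. Alternatives were normexp with an offset of 50, quantile normalization, median centring, another percentile base, and a looser and a stricter filter. The others were the deposited values, array weights, a replicate block, a slide row block and each array left out. The markers Oosp1, Cyp19a1 and Ovgp1 and the pathway gene Popdc3 were not analysed here, and 1 called pathway gene is counted but not reported here. Gene names are the array's, and promoters are RefSeq's on GRCr8, whose coordinates are not comparable with rn4.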

Additional observations from a re-analysis of the deposited data

Results flagged for a closer look

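The 15 member probes gave 30 groups of 4 arrays, and in 5 of them 1 array stood apart, its gap to the nearest other array divided by the group's range exceeding Dixon's 95% critical value for 4 values. Chance gives about 1 in 20, or 1.5 of 30. For Pde8a this held in both groups. PMSG 4 lay at -5.85 against -5.02 to -4.88 (ratio 0.860) and control 4 at -3.61 against -4.15 to -4.10 (ratio 0.912), both away from the other label. For Pde10a probe 1, control 1 lay at -4.53 against -3.68 to -3.59 (ratio 0.905), toward the arrays labelled PMSG. For Pde4c, control 1 lay at -7.64 against -6.50 to -6.30 (ratio 0.846), for a probe above background on 3 arrays of each label. For Pde7a probe 2, PMSG 3 lay at -0.91 against -0.54 to -0.47 (ratio 0.835).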

How the results depend on the processing

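The count of member probes past the threshold rose from 3 to 6 under quantile normalization, to 5 under median centring and to 5 with array weights, of which 2 were higher; with an array left out it ranged from 2 to 5, the 5 without PMSG 2. The causes were not tested. Over all probes the count ran from 6552 to 11382 around 8658. The split of 4452 higher and 4206 lower became 2914 and 5534 under median centring, 6297 and 4705 with array weights, 5076 and 3784 with the percentile over probes above background on all arrays, and 6982 and 4400 without PMSG 4. The wider pathway count ranged from 16 to 31 around 24. The labels do not say whether shared replicate numbers pair the arrays. Deviations of same-numbered arrays correlated at 0.0444, 0.0361, 0.183 and -0.0192. Those of different-numbered arrays were not computed, so these values cannot decide whether the arrays were paired. With a replicate block 2 member probes passed, 7346 of all probes and 19 pathway genes, and Pde4d probe 2 did not (limma adjusted p = 0.0580). Signs that turned were all of small differences. Pde3b became -0.18 (quantile), -0.0845 (median centring), -0.00915 (array weights) and, with an array left out, -0.0586 to 0.294. Pde4a probe 2 became -0.0373 under median centring. Pde7a probe 1 became -0.26 (quantile), -0.12 (median centring), -0.0544 (deposited values) and -0.0432 to 0.218 with an array left out. Pde7a probe 2 became -0.14 under median centring and -0.0221 to 0.125 with an array left out. The Pde7a probe pair became 0.0777 with the deposited values and -0.221 to 0.132 with an array left out. Pair tests with an array left out cannot give an exact permutation p under 0.0571. The 4 arrays per label limit every comparison, and Pde3a, near background, allows none.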
